A study of Arabidopsis thaliana with 9 samples.

Results

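The 45 nuclear genes described here encode subunits of mitochondrial complex I of Arabidopsis thaliana, and were taken by their gene identifiers from a table of 22254 genes. They were measured by RNA sequencing of whole seedlings with 3 libraries from each of 3 genotypes, all in the Columbia-0 background. These are the wild type and clpp2-1 and clpp2-2, labelled as knock-out mutants of CLPP2 (AT5G23140), a protease subunit that degrades proteins in the mitochondrial matrix. Every group was 2 weeks old and grown in liquid culture at 22 °C in 16 h of light and 18 °C in 8 h of dark. The labels give neither the insertion sites nor whether replicates came from separate cultures, so a p-value here covers the spread among these libraries and no more, and that spread may be technical. The series concerns how complexes with subunits from the nuclear and the mitochondrial genome are coordinated and assembled. In what follows a level is given as CPM, the counts of a gene relative to the scaled library total. Means carry the SD of 3 libraries.

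Complex I (NADH:ubiquinone oxidoreductase) is the entry point of electrons from NADH into the respiratory chain, and it couples their transfer to ubiquinone to proton pumping across the inner membrane. Its matrix arm carries the N-module, which oxidises NADH, and the Q-module, which reduces ubiquinone, while its membrane arm pumps protons. In plants the membrane arm also bears a matrix-facing domain of gamma carbonic anhydrases. The core of the membrane arm and some Q-module subunits are encoded in the plant mitochondrial genome, so RNA from both genomes is needed to build the complex. The members were placed in 7 groups by their textbook roles: 3 N-module core subunits, 3 Q-module core genes, 5 gamma carbonic anhydrases, 7 accessory subunits of the matrix arm, 19 of the membrane arm, 7 other subunits, and GLDH. GLDH makes ascorbate in the last step of its synthesis and is also needed for complex I assembly.

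All 45 genes were in the table and all 45 passed the filter on low counts, and the smallest count of any of them in any library was 670. Library totals were 36043744 to 36477053, and the members took 0.459 to 0.497% of the counts. CLPP2 stood at 44.7 ± 1.83 CPM in wild-type seedlings, and at 5.56 ± 0.616 and 4.60 ± 0.0709 CPM in clpp2-1 and clpp2-2, in the direction of the labels. The labelled whole seedling was checked by markers. Leaf markers (8 genes, small Rubisco subunits and light-harvesting proteins) summed to 16480 to 24540 CPM in the wild-type libraries, 19140 to 20730 in clpp2-1 and 22050 to 28480 in clpp2-2. Root markers (5 genes) summed to 18.7 to 26.7, 22.8 to 47.6 and 14.03 to 17.0 CPM, and floral organ markers (4 genes) to at most 2.95 CPM in any library. Seed storage genes (8) summed to 107, 23.0 and 0.358 CPM in the wild-type libraries 1, 2 and 3, to 13.1, 2.70 and 0.907 CPM in clpp2-1, and to at most 1.08 CPM in clpp2-2.

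The sequences before the gene starts show what many of these genes share apart from their product. Site II elements, short motifs known from promoters of plant respiratory and cell-division genes, were searched as TGGGCC or TGGGCT on both strands, from 250 bases before to 50 bases after each annotated gene start in TAIR10.1. Matches on opposite strands may overlap. Of the 45 members, 31 (68.9%) held at least 1 match, against 21.7% of the 27443 nuclear protein-coding genes. At least 2 matches were found in 57.8% of members and in 13.7% of all. Among the 22054 nuclear protein-coding genes in the expression table, which holds all members, these shares were 24.2% and 15.8%. The 100 bases before the start are printed here from the RefSeq assembly for 6 members with matches within these bases and 3 without, on the strand of the gene and ending at the base before its start. Capitals mark the matches. The first pair are N-module core genes, NDUFA2 and NDUFA9 belong to the matrix arm, and NDUFB4 and NDUFB2 to the membrane arm. NDUFS7, GAMMA CA3 and GAMMA CAL2 had no match in these 100 bases and are shown for the results below; GAMMA CAL2 had 3 matches elsewhere in the longer window.
NDUFS1 (AT5G37510, chr5:14897229-14897328, plus strand): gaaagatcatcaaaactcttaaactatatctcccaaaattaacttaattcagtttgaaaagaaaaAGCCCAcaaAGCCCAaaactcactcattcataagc
NDUFV2 (AT4G02580, chr4:1134329-1134428, plus strand): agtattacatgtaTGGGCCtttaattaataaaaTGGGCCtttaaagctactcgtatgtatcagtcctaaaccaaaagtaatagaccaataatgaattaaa
NDUFA2 (AT5G47890, chr5:19388604-19388703, plus strand): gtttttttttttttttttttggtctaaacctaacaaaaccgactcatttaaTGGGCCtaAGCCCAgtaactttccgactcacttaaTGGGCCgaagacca
NDUFA9 (AT2G20360, chr2:8785860-8785959, plus strand): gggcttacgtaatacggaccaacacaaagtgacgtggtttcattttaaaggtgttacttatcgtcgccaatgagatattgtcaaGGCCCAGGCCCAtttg
NDUFB4 (AT2G31490, chr2:13411840-13411939, plus strand): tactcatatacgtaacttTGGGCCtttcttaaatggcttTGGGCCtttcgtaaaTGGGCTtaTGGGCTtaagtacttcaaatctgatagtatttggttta
NDUFB2 (AT1G76200, chr1:28593111-28593210, plus strand): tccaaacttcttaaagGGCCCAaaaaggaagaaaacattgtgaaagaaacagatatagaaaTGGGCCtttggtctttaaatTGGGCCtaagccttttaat
NDUFS7 (AT5G11770, chr5:3793027-3793126, minus strand): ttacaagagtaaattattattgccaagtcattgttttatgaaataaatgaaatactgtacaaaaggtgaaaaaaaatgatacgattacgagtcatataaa
GAMMA CA3 (AT5G66510, chr5:26551637-26551736, minus strand): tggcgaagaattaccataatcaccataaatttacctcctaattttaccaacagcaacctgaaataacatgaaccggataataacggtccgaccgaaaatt
GAMMA CAL2 (AT3G48680, chr3:18034835-18034934, plus strand): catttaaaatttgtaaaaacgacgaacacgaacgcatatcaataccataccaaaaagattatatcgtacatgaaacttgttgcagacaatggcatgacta

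In these windows the 4 matches of NDUFB4 and the 3 of NDUFA2 stand close together, and those of NDUFA9 touch each other just before the start. Over all members, 51 of the 54 matches before the start (94.4%) fell within its last 100 bases, with a median position of -38.0, against 58.4% and -86.0 for all genes. Site II matches occurred in 6 of 7 matrix arm accessory genes, 15 of 19 membrane arm genes, 3 of 5 gamma carbonic anhydrases and 2 of 3 N-module core genes, and in 0 of 3 Q-module core genes. Nuclear genes of complexes III, IV and V held a match in 60.0, 55.6 and 58.3% of promoters, and those of complex II in 16.7%. When the 250 bases before the start were taken alone, the share was 55.6% of members, 19.2% of all genes and 21.3% of those in the expression table. The telo box core AACCCTA was in 13.3% of members and 8.8% of all. The mitochondrial dysfunction motif CTTGNNNNNCAAG was in 0 of 45 members and 0.9% of all.

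Wild-type RNA levels per exon length spanned a wide range within the complex. NDUFS7 (AT5G11770), the Q-module subunit with the iron-sulphur cluster next to the ubiquinone site, was highest at 399 CPM per kb, with 477, 496 and 456 CPM in the wild-type libraries. NDUFA1 (AT3G08610), a small membrane arm subunit, followed at 248 ± 20.1 CPM per kb, and NDUFB9 (AT4G34700, CIB22), a membrane arm subunit, at 208 ± 7.82 CPM per kb. The lowest was the first NDUFA8 gene (AT3G06310) at 13.5 ± 0.500 CPM per kb, below GAMMA CA1 (AT1G19580) at 17.9 ± 0.967 and GLDH (AT3G47930) at 23.6 ± 1.37 CPM per kb. With the longest annotated transcript as the length, AT3G06310 stood at 21.1 CPM per kb and GAMMA CA1, at 18.9, became the lowest. Among the N-module core, NDUFV1 (AT5G08530, 135 ± 8.89 CPM per kb) and NDUFV2 (AT4G02580, 132 ± 3.96) differed by less than their spread, and NDUFS1 (AT5G37510) stood lower at 94.2 ± 4.82 CPM per kb.

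**Figure D1:**
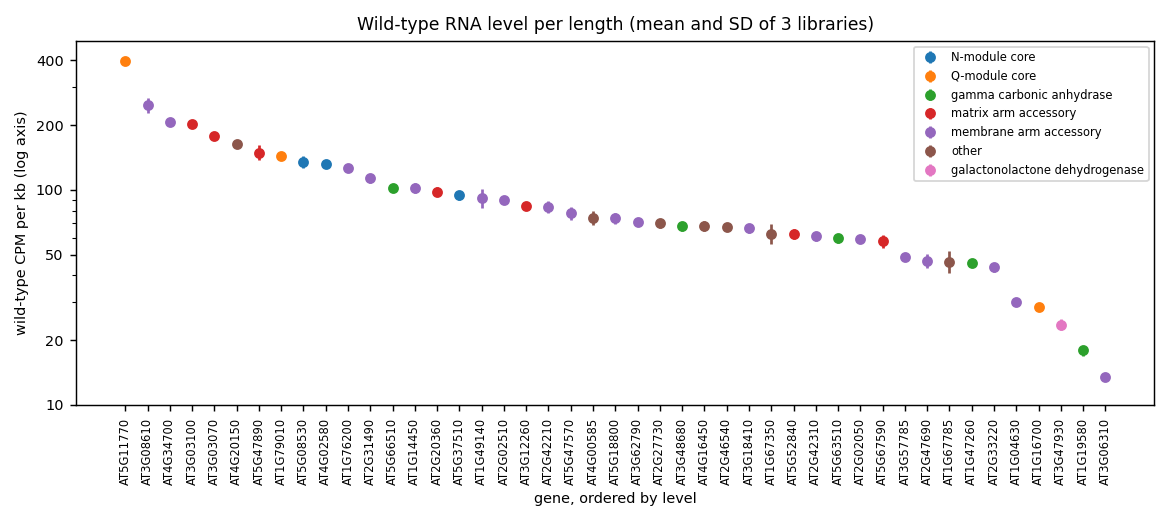
Wild-type level of each member in CPM per kb of merged exon (log axis), as mean and SD of 3 libraries, ordered by level and coloured by role. NDUFS7 (AT5G11770) at 399 and AT3G06310 at 13.5 CPM per kb are the ends of the range, and accessory subunits of the membrane arm (purple) are found from near the top to the bottom of the order.

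Wild-type libraries varied little around these means. GAMMA CA3 (AT5G66510) had the smallest coefficient of variation in the wild type, 0.793%, and AT1G67785, an accessory subunit, the largest, 11.5%. The latter came from wild-type library 3, at 30.6 CPM beside 38.2 and 36.8 CPM in libraries 1 and 2. Library 3 was the low wild-type library for many members, and its median member lay 0.0514 below the wild-type mean on the log2 scale.

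**Figure D2:**
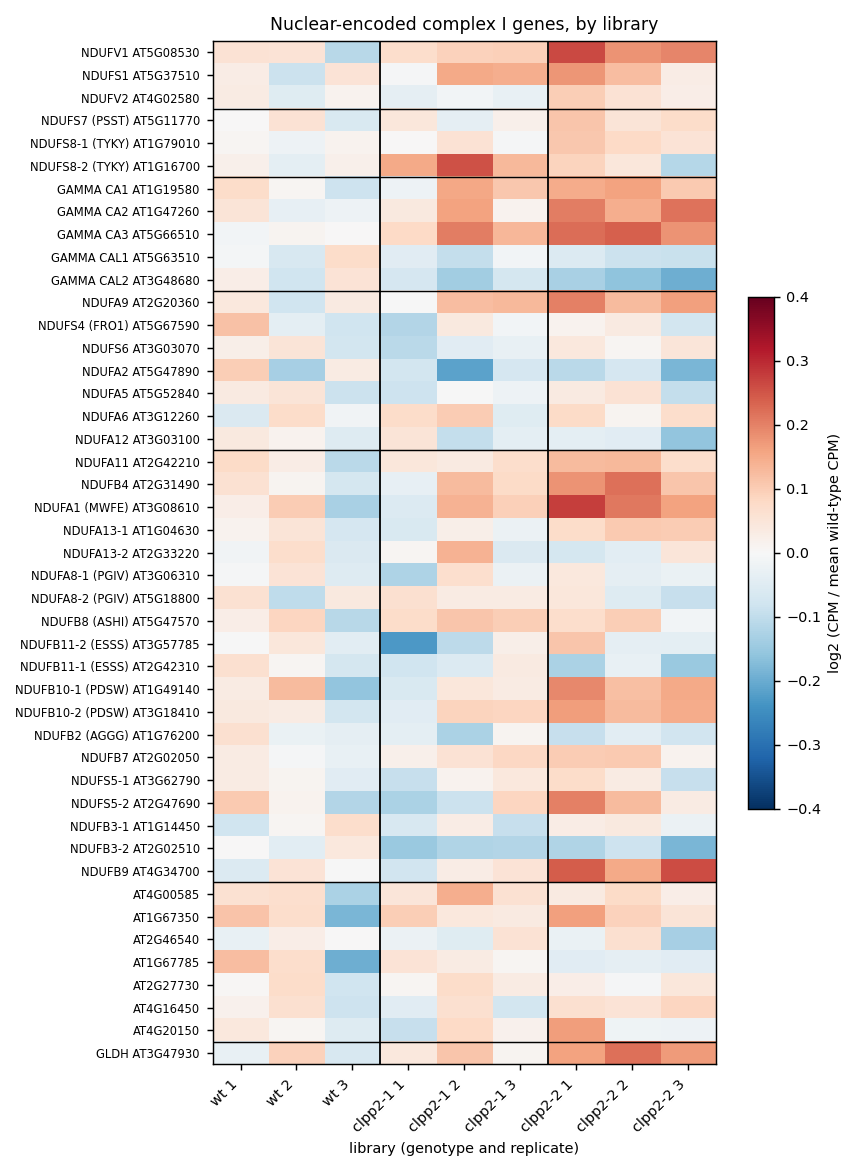
Log2 ratio of each member's CPM to its wild-type mean (colour, from -0.4 to 0.4) in the 9 libraries (columns), with members in rows by role. The clpp2-2 columns are higher in NDUFV1, NDUFA1, NDUFB9, GLDH, NDUFB4, NDUFA9, the NDUFB10 genes and the GAMMA CA genes. They are lower in GAMMA CAL2, AT2G02510 and NDUFA2, and most other members stay pale in every library.

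The first question was whether RNA of the nuclear complex I genes differed in clpp2-1. None of the 45 passed the test (edgeR quasi-likelihood, Benjamini-Hochberg adjusted p under 0.05 over 20294 genes). The same test called 0.177% of all genes. At an unadjusted p under 0.05 there were 3 members, 6.67% of them beside 6.44% of all genes. DESeq2 and limma-voom each called 0 members, beside 0.453% and 0.143% of all genes. The median log2 fold change of the members was 0.009 (all genes -0.001), and single members ran from -0.13 to 0.18. Their interquartile range was 0.086, against 0.192 over all genes.

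The members at the ends of that range were these. The second NDUFS8 gene (AT1G16700), for a Q-module subunit with iron-sulphur clusters, stood at 37.6, 35.99 and 37.5 CPM in the wild type and 41.1, 44.1 and 40.5 CPM in clpp2-1. The groups did not overlap (log2 0.18, SE 0.0625, adjusted p = 0.758). GAMMA CA3, a gamma carbonic anhydrase, stood at 128, 130 and 129 CPM and at 136, 149 and 141 CPM, again without overlap (log2 0.14, SE 0.0428, adjusted p = 0.758). NDUFS1, which carries iron-sulphur clusters of the N-module, had the next value (log2 0.10, adjusted p = 0.786), with overlapping libraries. At the other end, the second NDUFB3 gene (AT2G02510) stood at 71.4, 69.2 and 73.4 CPM in the wild type and 64.3, 65.6 and 65.7 CPM in clpp2-1 (log2 -0.13, SE 0.0413, adjusted p = 0.758). NDUFA2 (AT5G47890, log2 -0.12, adjusted p = 0.768) and the second NDUFB11 gene (AT3G57785, log2 -0.10, adjusted p = 0.793) overlapped the wild type. All clpp2-1 libraries lay above all wild-type libraries in 3 members and below them in 1, beside 5.17% and 4.44% of all genes.

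How large a change the data leave room for is given by the intervals. In clpp2-1 the highest upper bound of a member's 95% interval was 1.25-fold (AT1G16700) and the lowest lower bound 0.825-fold (NDUFA2). In clpp2-2 these bounds were 1.30-fold (NDUFA1) and 0.824-fold (NDUFA2). These are intervals for single genes, not adjusted for their number.

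The comparison of clpp2-2 used the same 3 wild-type libraries as that of clpp2-1, and gave 3 members that rose and 0 that fell. NDUFV1 of the N-module, GAMMA CA3 and NDUFB9 rose, each by 1.16-fold. The 3 of 45 are 6.67% of members. The test called 10.1% of all genes in this line, 5.5% higher and 4.57% lower. The share of members that rose was near the 5.5% of all genes that rose. At an unadjusted p under 0.05 there were 11 members (24.4%, beside 29.5% of all genes). The median log2 fold change of the members was 0.052 (all genes -0.012), the range -0.16 to 0.22 and the interquartile range 0.13, against 0.347 over all genes. All clpp2-2 libraries lay above all wild-type libraries in 12 members (26.7%, beside 17% of all genes) and below them in 3 (6.67%, beside 16.7%).

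**Figure D3:**
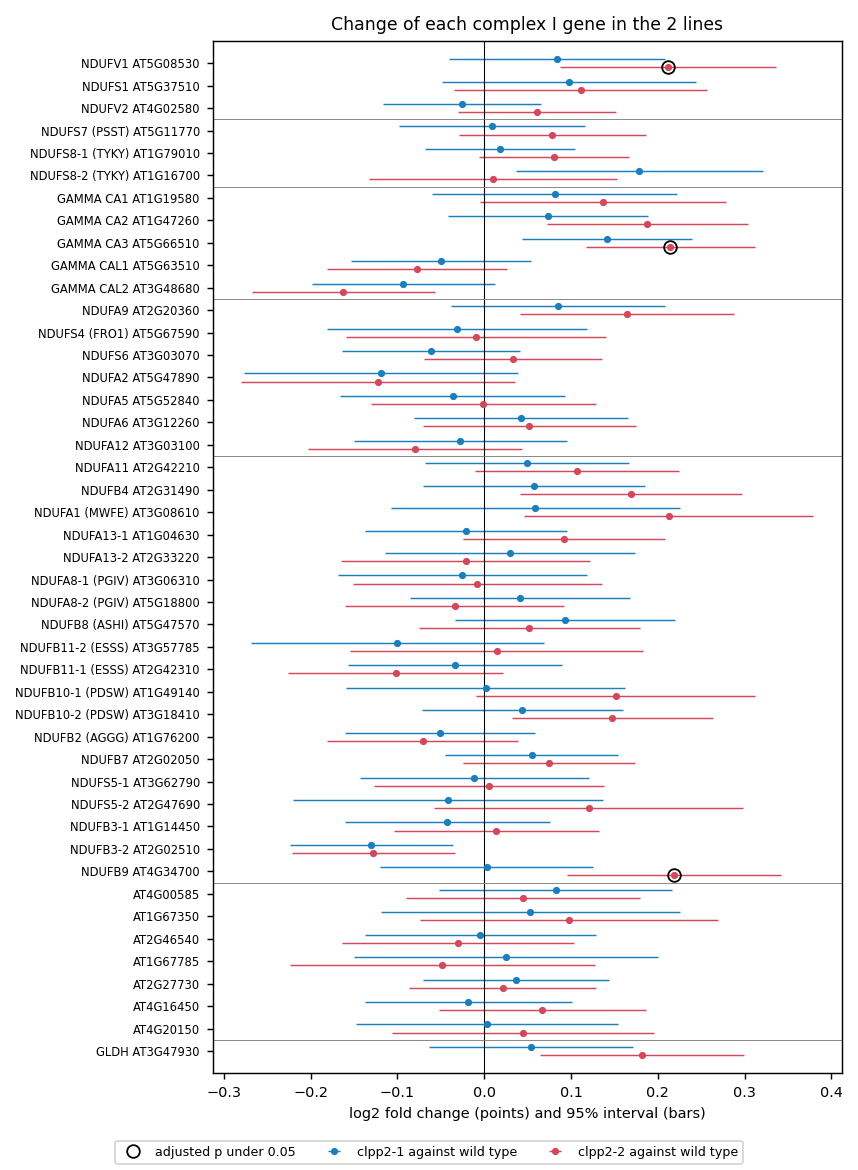
Log2 fold change of each member against the wild type (points) with its 95% interval (bars), in clpp2-1 (blue) and clpp2-2 (red), by role, with circles at an adjusted p under 0.05. The 3 circles are NDUFV1, GAMMA CA3 and NDUFB9 in clpp2-2, and every point lies between -0.16 and 0.22.

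In the N-module core, NDUFV1 (chromosome 5, 2759317 to 2762019 in TAIR10.1, minus strand, 3 exons), the flavin subunit where NADH binds, stood at 290, 289 and 258 CPM in the wild type. It stood at 293, 297 and 298 CPM in clpp2-1 and at 335, 316 and 319 CPM in clpp2-2, above every library of the other genotypes (log2 0.21, SE 0.0545, adjusted p = 0.045 by edgeR against the wild type). NDUFS1 stood at 263, 243 and 268 CPM in the wild type and 292, 281 and 264 CPM in clpp2-2, and the groups overlapped (log2 0.11, adjusted p = 0.284). NDUFV2, another iron-sulphur subunit of the module, stood at 165, 156 and 163 CPM and at 172, 168 and 164 CPM, with overlap (log2 0.06, adjusted p = 0.343).

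In the Q-module core none of the 3 genes was called. NDUFS7 (log2 0.08, adjusted p = 0.304) and the first NDUFS8 gene (AT1G79010, log2 0.08, adjusted p = 0.198) had like values in clpp2-2, and AT1G16700 stood at 0.01 (adjusted p = 0.938).

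Of the 5 gamma carbonic anhydrase genes 1 rose in clpp2-2. GAMMA CA3 (chromosome 5, 26549698 to 26551636, minus strand) rose to 150, 152 and 146 CPM in clpp2-2 from 128, 130 and 129 CPM (log2 0.21, SE 0.0428, adjusted p = 0.0217). GAMMA CA2 (AT1G47260) stood at 133, 125 and 126 CPM in the wild type and 148, 142 and 149 CPM in clpp2-2 without overlap, and missed the threshold (log2 0.19, SE 0.0506, adjusted p = 0.0509). GAMMA CA1 stood at 0.14 on the log2 scale (adjusted p = 0.18). The carbonic anhydrase-like genes, whose products sit in the same domain, had values below 0. GAMMA CAL2 (AT3G48680) stood at 83.6, 77.8 and 85.2 CPM in the wild type, 78.3, 74.6 and 78.2 CPM in clpp2-1 and 75, 73.5 and 71.7 CPM in clpp2-2 (log2 -0.16, SE 0.0462, adjusted p = 0.059). GAMMA CAL1 (AT5G63510) stood at -0.08 (adjusted p = 0.291).

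The balance of these subfamilies was formed per length, as the summed level of the 3 GAMMA CA genes over that of the 2 GAMMA CAL genes, a measure chosen after the values were seen. The ratio was 1.30, 1.36 and 1.23 in the wild-type libraries, 1.40, 1.60 and 1.43 in clpp2-1 and 1.60, 1.63 and 1.62 in clpp2-2. No mutant library overlapped the wild type, and no test is given because the genes were picked by these values. GAMMA CA2 overlaps AT1G47250 on the opposite strand, with which 27.3% of its 31-base words are shared, and whether reads were counted by strand is not stated in the sources used here.

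Accessory subunits of the matrix arm had 0 of 7 genes called in either line. In clpp2-2 NDUFA9 (AT2G20360), a subunit that binds NADPH, was highest at 0.16 (adjusted p = 0.0861), with 181, 167 and 180 CPM in the wild type and 202, 192 and 197 CPM in the mutant. NDUFA2 was lowest at -0.12 (adjusted p = 0.275). Between them NDUFS4 (AT5G67590, FRO1, first known from a cold-response mutant), NDUFS6 (AT3G03070), NDUFA5 (AT5G52840), NDUFA6 (AT3G12260) and NDUFA12 (AT3G03100) ran from -0.08 to 0.05.

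Of the 19 membrane arm accessory genes 1 rose in clpp2-2. NDUFB9 (CIB22, chromosome 4, 16556738 to 16559034, plus strand, 6 exons) stood at 205, 221 and 212 CPM in the wild type, 201, 217 and 221 CPM in clpp2-1 and 251, 236 and 255 CPM in clpp2-2 (log2 0.22, SE 0.0540, adjusted p = 0.0405). Its clpp2-2 libraries lay above all others, and those of clpp2-1 overlapped the wild type (log2 0.0026). NDUFA1 had a value of like size with a wider spread and was not called, at 165, 173 and 148 CPM in the wild type and 195, 187 and 180 CPM in clpp2-2 (log2 0.21, SE 0.0731, adjusted p = 0.0967). NDUFB4 (AT2G31490, log2 0.17, adjusted p = 0.0881) and the second NDUFB10 gene (AT3G18410, log2 0.15, adjusted p = 0.0966) did not overlap the wild type. AT2G02510 of NDUFB3 had the second-lowest value of all members in clpp2-2, -0.13 (adjusted p = 0.0825), as low as in clpp2-1. Copies of the same subunit took these values, none of them called. AT1G49140 of NDUFB10 stood at 0.15 (adjusted p = 0.191), AT1G04630 and AT2G33220 of NDUFA13 at 0.09 and -0.02, and AT3G57785 and AT2G42310 of NDUFB11 at 0.01 and -0.10. AT3G62790 and AT2G47690 of NDUFS5 stood at 0.01 and 0.12, AT3G06310 and AT5G18800 of NDUFA8 at -0.01 and -0.03, and AT1G14450 of NDUFB3 at 0.01. NDUFA11 (AT2G42210, 0.11), NDUFB8 (AT5G47570, 0.05), NDUFB7 (AT2G02050, 0.07) and NDUFB2 (AT1G76200, -0.07) lay between.

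GLDH stood at 57.6, 62.7 and 56.2 CPM in the wild type, 60.5, 63.5 and 59.2 CPM in clpp2-1 and 65.7, 68.4 and 66.2 CPM in clpp2-2. The clpp2-2 libraries lay above the rest, and the test missed the threshold (log2 0.18, SE 0.0515, adjusted p = 0.0585). The other 7 subunits, AT4G00585, AT1G67350, AT2G46540, AT1G67785, AT2G27730, AT4G16450 and AT4G20150, ran from -0.05 to 0.10 in clpp2-2 and from -0.02 to 0.08 in clpp2-1, and none was called.

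The calls in clpp2-2 changed when 1 library was left out. The count of members called was 0 without wild-type library 1, without wild-type library 3 or without any 1 clpp2-2 library, 1 without clpp2-1 library 3, and 7 without wild-type library 2. The share of all genes called moved with it, from 10.1% to between 2.45 and 3.82% in the settings with 0 members. It was 5.72% without clpp2-1 library 3 and 20.7% without wild-type library 2. Without clpp2-1 library 1 the count was 2 (8.53% of all genes), and without clpp2-1 library 2 it was 3 (8.99%). NDUFV1 was called in neither of those fits (adjusted p = 0.0603 and 0.0575 by edgeR). In the second, GAMMA CA2 was called in its place (0.0337). With 1 library left out, NDUFV1 kept its call only in the fit without wild-type library 2. The log2 fold changes in these 9 fits were 0.16 to 0.25 for NDUFV1, 0.20 to 0.24 for GAMMA CA3 and 0.20 to 0.25 for NDUFB9. In these members every clpp2-2 library lay above every wild-type library, so leaving out 1 library could not turn the sign. The clpp2-2 libraries had leaf marker sums that overlapped the upper wild-type library and root marker sums below every wild-type library, with 2 of 8 leaf genes called higher (median log2 0.471) and 0 of 5 root genes called (median -0.576), and their part in the 3 calls was not tested. In such bulk samples fewer cells of a type and less RNA per cell cannot be told apart.

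Taking both lines as their mean, edgeR called 0 of 45 members (1.06% of all genes). At an unadjusted p under 0.05 there were 9 members (20%, beside 20.4% of all genes), limma-voom called 0 (0.956% of all genes) and DESeq2 3 (5.93% of all genes). The lowest adjusted p was that of GAMMA CA3 (log2 0.18, adjusted p = 0.0737), which was above every wild-type library in 6 of 6 mutant libraries. All mutant libraries also lay above the wild type in NDUFV1 (log2 0.15) and below it in AT2G02510 (log2 -0.13). The share of all genes that separate in this way is not given here. Between the lines edgeR again called 0 of 45 members, beside 3.97% of all genes. There were 4 at an unadjusted p under 0.05 (8.89%, beside 21% of all genes), limma-voom called 0 (4.02% of all genes) and DESeq2 1 (8.75% of all genes). NDUFB9 differed most, by log2 0.22 in favour of clpp2-2 (adjusted p = 0.0652), and AT1G16700 stood lower in clpp2-2 (log2 -0.17, adjusted p = 0.17).

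All 45 members stayed within a log2 fold change of 0.25 in every comparison, a band set after seeing the values. Of all genes 80.4% stayed within it in clpp2-1 and 63.1% in clpp2-2. The share of all genes was 74.7% with the lines averaged and 69.3% in the comparison of clpp2-2 with clpp2-1. A narrow range was not particular to complex I. The 47 genes of complexes II to V tested ran from -0.17 to 0.21 in clpp2-1 and from -0.15 to 0.24 in clpp2-2. Between the lines they ran from -0.23 to 0.29. Their interquartile range was 0.093 in clpp2-1 and 0.099 in clpp2-2, beside 0.086 and 0.13 for the members. All 45 of the members' intervals lay within 0.5 on the log2 scale in each line, as did 63.1% of all genes in clpp2-1 and 53.1% in clpp2-2. Genes with far fewer counts than these members are among all genes, and no match for level was made. The curves of absolute change show the same contrast over the whole range.

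**Figure D4:**
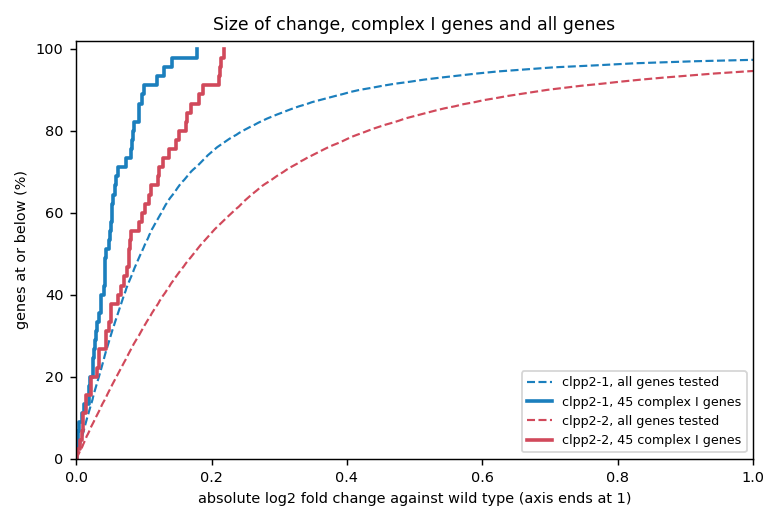
Share of genes (%) at or below each absolute log2 fold change against the wild type, for the 45 members (solid) and all genes tested (dashed) in clpp2-1 (blue) and clpp2-2 (red), with the axis ending at 1. The member curves reach 100% before 0.25, where the curves of all genes stand at 80.4% and 63.1%.

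Genes present in copies allow a view of which copy supplies the RNA. In 7 subunits a pair of genes encodes the protein, and 84.1 to 91.2% of the aligned coding bases are identical within these pairs. At most 22 words of 31 bases are shared within a pair (NDUFS8), and reads over shared stretches could be split between copies. Per length, the first NDUFS8 gene (AT1G79010) gave 83.4 ± 0.16% of the RNA of its pair in the wild type and AT5G18800 gave 84.5 ± 1.3% for NDUFA8, with AT3G06310 as the minor copy. The other pairs were closer to even. AT2G33220 gave 59.3 ± 0.40% for NDUFA13 beside AT1G04630 (MEE4), AT2G42310 55.6 ± 0.97% for NDUFB11 beside AT3G57785, and AT1G49140 58.0 ± 1.5% for NDUFB10 beside AT3G18410. AT3G62790 gave 60.2 ± 1.2% for NDUFS5 beside AT2G47690, and AT1G14450 53.2 ± 1.2% for NDUFB3 beside AT2G02510. These shares rest on merged exon length, and their SD does not cover that choice. With the longest transcript as the length, AT3G06310 stood at 21.1 instead of 13.5 CPM per kb. AT2G33220 then stood at 56 instead of 43.6 and AT3G18410 at 80.3 instead of 66.1 CPM per kb, so the shares of their pairs would differ. Among the carbonic anhydrases GAMMA CA3 gave 61.5 ± 0.98% of the GAMMA CA level per length. Its lead over GAMMA CA2 rests on the gene models, with 1268 and 2807 merged exon bases. Before division by length the 2 genes stood at 129 and 128 CPM in the wild type.

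The same shares were read in the mutant lines. The minor NDUFS8 copy AT1G16700 held 16.4 to 16.7% in the 3 wild-type libraries, 17.9 to 18.5% in those of clpp2-1 and 15.01 to 16.4% in those of clpp2-2. Its clpp2-1 libraries were the highest of all. In NDUFB10, whose AT1G49140 shares 49.8% of its words with the opposite-strand gene AT1G49150, the share was 57.4 ± 0.37% in clpp2-1 and 58.2 ± 0.27% in clpp2-2. Words are also shared, mostly with an opposite-strand gene, by AT3G57785 of NDUFB11 (49.8%), AT1G14450 of NDUFB3 (35.8%) and AT2G33220 of NDUFA13 (18.8%). No counts are given for the opposite-strand genes of these members. In NDUFB11 the share of AT2G42310 was 56.8 ± 1.2% and 53.6 ± 2.1%, in NDUFS5 that of AT3G62790 60.7 ± 1.2% and 58.3 ± 0.32%, and in NDUFA8 that of AT5G18800 85.1 ± 0.97% and 84.3 ± 0.33%. In NDUFA13 the share of AT2G33220 was 58.79 to 59.54% in the wild type, 58.65 to 61.15% in clpp2-1 and 56.77 to 58.37% in clpp2-2. In NDUFB3 the share of AT1G14450 was 51.84 to 54.11%, 53.67 to 55.84% and 55.31 to 55.95%. In both pairs the clpp2-2 libraries did not overlap the wild type. The same held in NDUFS5, where AT3G62790 gave 59.1 to 61.41% in the wild type and 58.08 to 58.66% in clpp2-2. GAMMA CAL1 gave 46.23 to 47.15% of the GAMMA CAL level in the wild type. Its share was 47.23 to 47.88% in clpp2-1 and 48.07 to 48.67% in clpp2-2, neither overlapping the wild type. Such shares were not formed for genes outside the complex, so how often they separate elsewhere is not known. Among all single genes tested, the clpp2-2 libraries lay above all wild-type libraries in 17% and below them in 16.7%. The differences in shares were described and not tested.

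The nuclear genes were set against the complex I identifiers of the mitochondrial genome, which count parts of some genes apart. Of 13 such identifiers tested, 3 rose in clpp2-1 and 8 in clpp2-2, beside 0.177% and 10.1% of all genes called, and 0 fell. Their median log2 fold changes were 0.285 and 0.662, with ranges from -0.59 to 1.47 and from -0.23 to 1.45. In each line 2 identifiers lay below 0. The rise included nad7 (ATMG00510), a Q-module core subunit, from 9.51 ± 0.435 to 20.4 ± 1.47 CPM in clpp2-1 and 25.5 ± 3.04 CPM in clpp2-2 (log2 1.10, adjusted p = 0.00293, and log2 1.42, adjusted p = 0.000205, by edgeR). The summed CPM of the 45 nuclear genes was 4691, 4653 and 4479 in the wild type, 4573, 4732 and 4714 in clpp2-1 and 4978, 4847 and 4782 in clpp2-2. The 13 mitochondrial identifiers summed to 68.7, 59.9 and 68.6 CPM, to 98.8, 115 and 97.5 CPM and to 127, 110 and 128 CPM. The nuclear sum over the mitochondrial sum was thus 70.4 ± 6.5 in wild-type seedlings, and it was 45.2 ± 3.79 in clpp2-1 and 40.4 ± 3.51 in clpp2-2, with no mutant library as high as any wild-type library. The labels name random hexamer priming. How the libraries treated RNA without a poly(A) tail, as mitochondrial RNA mostly is, is not stated here, so the ratio compares libraries and is no count of molecules.

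**Figure D5:**
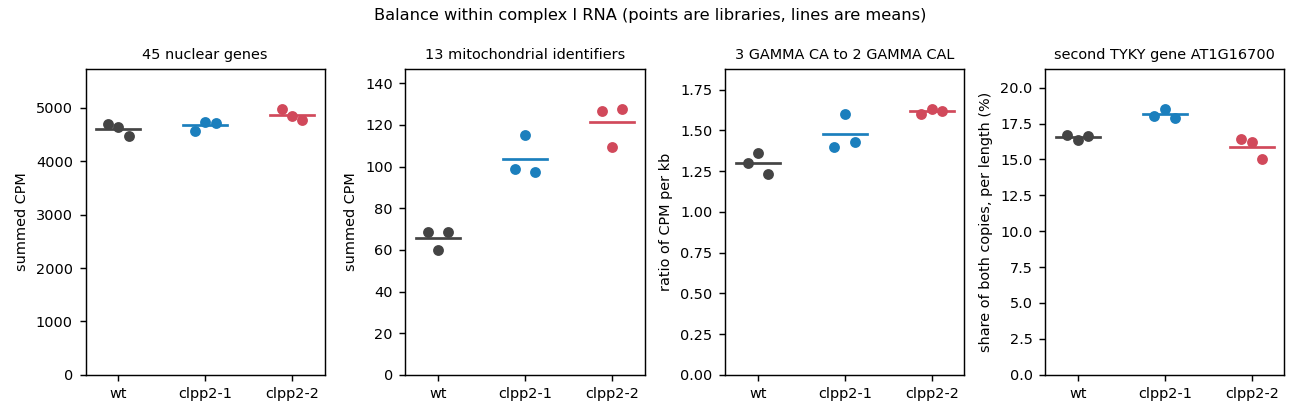
From left to right, by genotype: summed CPM of the 45 nuclear genes, summed CPM of the 13 mitochondrial complex I identifiers, the ratio of the 3 GAMMA CA to the 2 GAMMA CAL genes per length, and the share of AT1G16700 in its pair (%). Points are libraries and lines are means of 3, and the mitochondrial sum and the GAMMA CA ratio separate every mutant library from the wild type while the nuclear sum overlaps in clpp2-1.

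Other nuclear genes of the respiratory chain were read in the same fit, which called 0.177% of all genes in clpp2-1 and 10.1% in clpp2-2. Of 47 genes of complexes II to V tested, 0 were called in clpp2-1 (median 0.034) and 1 in clpp2-2 (median 0.049), the complex II subunit gene AT3G47833, from 21.9 ± 0.606 to 25.8 ± 0.985 CPM (log2 0.24, adjusted p = 0.0273). Of 7 complex I assembly and acyl carrier genes 0 were called in either line (medians 0.065 and 0.098). Of the 7 alternative NADH dehydrogenases, which oxidise NADH or NADPH without pumping protons, NDC1 (AT5G08740) rose in clpp2-2 from 36.4 ± 0.453 to 40.8 ± 1.51 CPM (log2 0.16, adjusted p = 0.0461) and 0 were called in clpp2-1. Over these 7 genes the log2 fold change ran from 0.03 to 1.48 in clpp2-1 (median 0.07) and from -0.44 to 0.99 in clpp2-2 (median 0.23). Members with a site II match had a median log2 fold change of 0.045 in clpp2-2 and those without one of 0.065, a split made after seeing the values.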

How the data were processed

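RNA was sequenced from whole Arabidopsis seedlings, and 1 table holds the 9 libraries. As deposited by the authors, its values are expected counts (estimated reads per gene, as whole numbers, with no normalization stated). The submitters' processing notes list TAIR10 as the build and, without roles, the tools Salmon 0.14.0, FastQC, DESeq2 and DESeq. Totals lie so close together that scaling before deposition is possible. The test was the quasi-likelihood F test of edgeR 4.0.16 (R 4.3.3), in a single model by genotype over the 9 libraries with 4 contrasts. Of the genes, filterByExpr removed 1960 and kept 20294, and TMM factors were 0.974 to 1.025. A call means an adjusted p (Benjamini-Hochberg, all genes of the contrast) under 0.05. The common biological coefficient of variation was 0.176. SEs were derived as |log2 fold change| / sqrt(F). Scripts were tested beforehand on simulated counts with 200 changed genes.

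Exon lengths, positions and promoters came from TAIR10.1 (RefSeq), which holds all 45 members. The table names genes and gives no coordinates. The members, gene lists and motifs were chosen with earlier results of these data known. Members named singly are the N-module core, all called members, copies of one subunit, the 3 highest and 3 lowest changes per line, the ends of the wild-type level and variation, and others by range. Alternatives were DESeq2 size factors, no filter, DESeq2 1.42.0 (Wald), limma-voom (limma 3.58.1), the replicate number as a block, only the groups compared, library sizes from nuclear genes, wild-type 1 and clpp2-1 1 left out together, each library left out and a threshold of 0.01. Same-numbered libraries of the wild type and clpp2-1 deviated together over 11806 genes (r = 0.253, 0.210 and 0.115, across genes, which are not independent). They pass the check for pairing, although the labels do not say that a number marks a shared culture. Differently numbered libraries of these 2 groups had r from -0.356 to 0.096. Between clpp2-1 library 1 and clpp2-2 library 3, which differ in number, r was 0.174, so a value of 0.115 also arises without a shared number. The reported fit has no block, and the fit with the number as a block is an alternative. Between the wild type and clpp2-2 r was 0.061, 0.087 and -0.006, and between the lines -0.169, -0.010 and -0.179. Plots and tables used Python 3.11.15, pandas 2.3.3, NumPy 2.4.6, matplotlib 3.10.9 and Biopython 1.88. The reads were not used here.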

Additional observations from a re-analysis of the deposited data

How the results depend on the processing

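In clpp2-1 the count of 0 members called held under all alternatives run, which called only 0.0986 to 0.453% of all genes. The median log2 fold change of the members ran from -0.007 to 0.031 with 1 library left out. In clpp2-2 the count of 3 members became 10 with the DESeq2 Wald test (9 higher, 1 lower, 16.8% of all genes called), 5 with library sizes from nuclear genes (10.4%), 1 with only the groups compared (6.1%), 0 at an adjusted p under 0.01 (1.81%) and 0 without wild-type 1 and clpp2-1 1 together (3.56%). Leaving out 1 library gave 0 to 7 (2.45 to 20.7% of all genes), with medians from 0.026 to 0.074. The count was 4 with DESeq2 size factors (10.3%), and 3 without a filter (8.43%) and with limma-voom (9.72%). For the mean of both lines the count of 0 became 3 with DESeq2 (5.93% of all genes called) and 0 to 3 with 1 library left out (3 without wild-type 2, with 10.6%), with medians from 0.006 to 0.055. Between the lines it became 1 with DESeq2 (8.75%) and 0 to 1 with 1 library left out (1 without wild-type 2, with 7.12%), with medians from 0.022 to 0.083. The cause was not tested. With the replicate number as a block, 0 members were called in clpp2-1 (0.113% of all genes) and 2 in clpp2-2 (8.15%). In that fit of clpp2-2, NDUFV1 (log2 0.21, adjusted p = 0.0618) and NDUFB9 (log2 0.22, 0.0586) were no longer called, and GLDH was (log2 0.18, 0.0418). NDUFV1 was also lost with only the groups compared (0.0903), as was NDUFB9 (0.0604). The called members kept their direction, which leaving out 1 library could not change because their groups did not overlap. Among uncalled members the sign changed in 51 of 765 member and setting pairs in clpp2-1 and in 42 of 714 in clpp2-2. The share of member promoters with site II fell from 68.9 to 55.6% when only the bases before the start were searched. The smallest count of a member in a library was 670, and over all genes the chi-square per gene between replicate libraries was 6.39 to 33.2, above the value of 1 that counting alone gives if the counts are unscaled.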
